A study of Homo sapiens with 10 samples.

Results

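IRF1 lies on the long arm of human chromosome 5 beside genes of unrelated function, and 8 genes of that stretch were followed by name in all 10 libraries of the study: P4HA2, PDLIM4, SLC22A4, SLC22A5, C5orf56, IRF1, RAD50 and KIF3A. They were chosen by position, as IRF1, its antisense gene C5orf56 and named genes around them, at a time when earlier results of these data were known. Each had 1 row in every table, so 8 of 36545 genes listed for the interferon experiment and 8 of 22609 listed for the knockdown experiment are described. The question that position poses is whether neighbours beyond IRF1 differed when the antisense RNA was raised or lowered.

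The libraries come from the human esophageal squamous cell carcinoma lines KYSE30, KYSE180 and KYSE450. In the first experiment each line gave 1 library from untreated cells, which received saline buffer, and 1 from cells given interferon-beta (IFN-β) at 1000 IU/ml, both at 72 h. The second experiment has, for KYSE30 and for KYSE180, 1 library from cells with the control vector and 1 from cells infected with lentivirus for knockdown of IRF1-AS, the long non-coding RNA antisense to IRF1. The lentivirus had been packaged in HEK293T cells, a human embryonic kidney line. Neither the sequence that the knockdown targets nor the number of clones is given in the sources used here. For IFN-β and for knockdown the lines are the replicates. The p-value sets the mean difference within lines against how much that difference varies between lines, a spread partly shared across genes. In the comparison of lines, the untreated and treated libraries of a line are its only repeats. Neither p-value says anything of repeat cultures.

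IRF1 encodes a transcription factor that activates antiviral and antigen presentation genes. Interferon signalling reaches its target genes through short DNA elements in their promoters, the palindromic GAS element and the ISRE, and IRF1 is itself an interferon-induced gene. An antisense RNA can act on the gene it overlaps, on other genes nearby, or on genes elsewhere in the genome. Among the neighbours, SLC22A5 is the cellular carnitine importer and SLC22A4 its close relative, known as an ergothioneine transporter. P4HA2 is a catalytic subunit of the enzyme that hydroxylates proline in collagen, and PDLIM4 is a PDZ and LIM domain protein of the actin cytoskeleton. RAD50 belongs to the complex that senses DNA breaks, and KIF3A is a motor subunit of kinesin-2, which carries cargo into cilia.

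In GENCODE release 29 on GRCh38, IRF1 is read from the minus strand of chr5:132481609-132490798. C5orf56 is read from the plus strand of chr5:132410636-132488702 and overlaps IRF1 by 7094 bases. On the lower-coordinate side lie P4HA2 (minus strand, chr5:132191838-132295315), PDLIM4 (plus strand, chr5:132257671-132273454), SLC22A4 (plus strand, chr5:132294443-132344206) and SLC22A5 (plus strand, chr5:132369752-132395614). On the other side lie RAD50 (plus strand, chr5:132556019-132646344) and KIF3A (minus strand, chr5:132692628-132737638). Measured between the GENCODE starts, C5orf56 begins at -80.2 kb from IRF1, SLC22A5 at -121.0 kb, P4HA2 at -195.5 kb, SLC22A4 at -196.4 kb, PDLIM4 at -233.1 kb, RAD50 at 65.2 kb and KIF3A at 246.8 kb. In this annotation all of PDLIM4 (15784 bases) lies inside the P4HA2 gene on the opposite strand, and P4HA2 overlaps SLC22A4 by 873 bases. RefSeq's gene models for GRCh38.p14 are shorter. There C5orf56 ends at 132476044, before IRF1, and P4HA2 spans 132190147 to 132227853, which puts its start at -262.9 kb, and none of the 8 genes overlap. The sources used here name neither the gene models that the authors counted on nor whether reads were counted by strand. Under the longer models, reads of IRF1 and C5orf56, or of PDLIM4 and P4HA2, from shared bases could not be told apart.

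The promoters of all 8 genes were found in the RefSeq table for GRCh38.p14, where C5orf56 is named CARINH. They were searched on both strands, in the table's window from 250 bases before a transcript start to 50 after it, for the GAS core TTCNNNGAA and the ISRE core GAAANNGAAA. For P4HA2 that start lies inside the RefSeq gene model given above, so its window (minus strand, from 132227341 downwards) is not at the outermost start. Of the 8 windows, that of IRF1 alone held the GAS core, at positions -124 to -116 with the first transcribed base as 1. That core occurs in 7.657% of 35116 promoters of the same length. The window of C5orf56 alone held the ISRE core, in 3 matches, and 3.574% of all promoters hold it. A pair of those matches, TTTCGCTTTC on the opposite strand from -39 to -30 and from -33 to -24, overlap each other, and the other, GAAAATGAAA, runs from -6 to 4 across the start. The windows of IRF1 and C5orf56 are shown because these genes alone among the 8 rose with IFN-β. That of IRF1 is given from 250 bases before its start (minus strand, chr5:132490774-132491023), with the GAS core in capitals, and that of C5orf56 whole (plus strand, chr5:132410679-132410978), with the ISRE cores in capitals.
IRF1: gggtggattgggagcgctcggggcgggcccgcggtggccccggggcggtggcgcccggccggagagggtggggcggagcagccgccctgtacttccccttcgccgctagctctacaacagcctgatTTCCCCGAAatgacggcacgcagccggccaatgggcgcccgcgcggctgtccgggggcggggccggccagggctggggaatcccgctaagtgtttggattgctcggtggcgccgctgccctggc
C5orf56: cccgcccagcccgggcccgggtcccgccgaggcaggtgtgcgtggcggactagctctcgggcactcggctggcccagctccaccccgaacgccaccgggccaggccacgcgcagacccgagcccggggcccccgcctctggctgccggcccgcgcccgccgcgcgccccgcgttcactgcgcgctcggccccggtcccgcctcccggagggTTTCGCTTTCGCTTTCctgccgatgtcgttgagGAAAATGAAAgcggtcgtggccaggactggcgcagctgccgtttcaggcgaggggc
A match describes letters in the window and not binding, which was not measured.

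Expression was compared as FPKM, read fragments normalized for transcript length and library size. The authors' values carry no read counts, so depth is unknown and the precision of a single library cannot be given. The experiments were normalized separately, with named genes summing to between 988427 and 993533 FPKM per library in the first and between 399081 and 425340 in the second, and they were tested apart. In KYSE450 the median gene of the first experiment was 0.41 higher on the log2 scale in the treated library as deposited. The libraries of an experiment were therefore scaled to a common median ratio, and differences and ratios below use scaled values. From 10 to 11 of 11 squamous epithelial markers reached 1 FPKM in every library. Of 6 fibroblast, 4 endothelial and 6 leukocyte markers at most 1 each did. In KYSE30 the squamous markers summed to 352 and 363 FPKM untreated and treated, and to 1054 and 1122 FPKM with vector and knockdown. In the KYSE180 and KYSE450 libraries the sum lay between 4256 and 9951 FPKM. The cause of these differences was not tested. The summed leukocyte markers were higher with IFN-β in 3 of 3 lines as deposited, from 1.90 to 2.59 FPKM in KYSE30, from 9.31 to 16.1 FPKM in KYSE180 and from 0.67 to 5.20 FPKM in KYSE450. Most of that was CD68, a lysosomal protein gene, while PTPRC, the general leukocyte marker, stayed at or below 0.09 FPKM in those 6 libraries. Of 5 markers of HEK293T cells, 1 to 2 did in the first experiment, where their sum went from 4.79 to 6.91, from 9.66 to 14.9 and from 9.01 to 17.9 FPKM in the same order, with PAX2 at or below 0.10 FPKM. So did 3 in each library of the second, where their summed level was 9.49 to 11.7 FPKM, and the part of these markers in the results was not tested.

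IFN-β raised IRF1 and C5orf56, and no other gene of the 8 passed the test. IRF1 was deposited at 7.31 FPKM in untreated and 19.8 FPKM in treated KYSE30, 3.35 and 10.5 FPKM in KYSE180, and 1.44 and 6.01 FPKM in KYSE450. Each treated library was above its own control, but the groups overlapped, since treated KYSE450 lay below untreated KYSE30. The scaled level rose 2.73-fold in KYSE30, 3.21-fold in KYSE180 and 2.97-fold in KYSE450. C5orf56 stood at 1.72 and 6.62 FPKM in KYSE30, 0.97 and 5.47 FPKM in KYSE180, and 0.38 and 3.93 FPKM in KYSE450. Here all 3 treated libraries were above all 3 untreated ones, with scaled ratios of 3.88, 5.76 and 7.36. On the log2(scaled FPKM + 1) scale, which understates ratios at low levels, IRF1 rose by 1.31 ± 0.13 (SE, n = 3 lines, 95% interval 0.99 to 1.63, limma adjusted p = 0.0185). C5orf56 rose by 1.60 ± 0.14 (SE, n = 3 lines, 95% interval 1.26 to 1.94, limma adjusted p = 0.0113). These are 2 calls among the 7 genes that could be tested, beside 0.426% of all 12428 genes tested.

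The call rests on the lines and on the filter, while the direction does not. Without KYSE30 the adjusted p of IRF1 in limma was 0.0676 and C5orf56 was not tested, and without KYSE450 the limma adjusted p was 0.0768 for IRF1 and 0.0761 for C5orf56. C5orf56 met the filter of 1 FPKM in 3 libraries with its 3 treated libraries and untreated KYSE30, and with no filter its limma adjusted p was 0.0874 and that of IRF1 0.145.

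**Figure D1:**
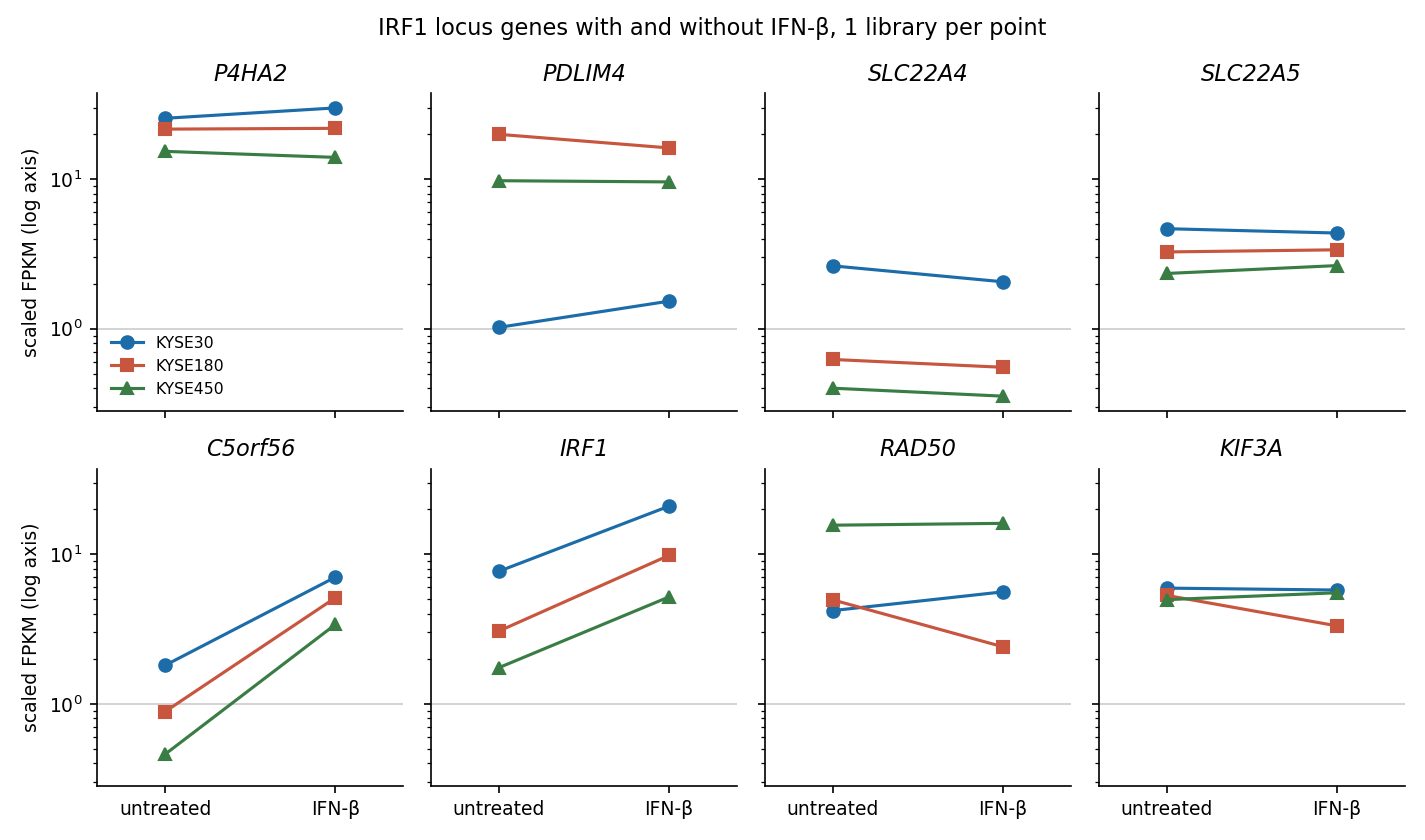
Scaled FPKM (log axis) of the 8 genes in untreated and IFN-β-treated cells, 1 point per library, with a line joining the libraries of a cell line and a grey line at 1 FPKM. IRF1 and C5orf56 slope upwards in all 3 lines, and RAD50 (48.6% of control) and KIF3A (62.6%) slope down in KYSE180.

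The other tested neighbours had log2 fold changes near 0. P4HA2 had 24.3 and 28.2 FPKM in untreated and treated KYSE30, 23.6 and 23.4 FPKM in KYSE180, and 12.7 and 16.2 FPKM in KYSE450, where the deposited difference is of the size of the shift of all genes. Its log2 fold change was 0.04 (95% interval -0.26 to 0.34). SLC22A5 had 4.43 and 4.11 FPKM in KYSE30, 3.56 and 3.60 FPKM in KYSE180, and 1.93 and 3.06 FPKM in KYSE450, with a log2 fold change of 0.03 (95% interval -0.31 to 0.36). PDLIM4 had 0.97 and 1.44 FPKM in KYSE30, 21.8 and 17.3 FPKM in KYSE180, and 8.05 and 11.1 FPKM in KYSE450, with a log2 fold change of 0.00 (95% interval -0.38 to 0.39). After scaling, none of these 3 genes had differences of 1 sign in all 3 lines.

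RAD50 and KIF3A, on the other side of IRF1, spread more between the lines. RAD50 had 3.99 and 5.28 FPKM in KYSE30, 5.41 and 2.57 FPKM in KYSE180, and 12.9 and 18.6 FPKM in KYSE450. Treated KYSE180 held 48.6% of its control's scaled level, against 133% in KYSE30 and 103% in KYSE450. KIF3A had 5.64 and 5.43 FPKM in KYSE30, 5.80 and 3.55 FPKM in KYSE180, and 4.10 and 6.40 FPKM in KYSE450, and the scaled level in KYSE180 was 62.6% of control. With 1 library per arm, a difference between lines was not tested. The log2 fold change was -0.14 for RAD50 (95% interval -0.71 to 0.43) and -0.15 for KIF3A (95% interval -0.57 to 0.27), and without KYSE180 they were 0.20 and 0.05. Over the 5 neighbours the limma adjusted p ranged from 0.774 to 0.994, and on the scale with the pseudocount their intervals were narrowest for P4HA2 (0.835-fold to 1.26-fold) and widest for RAD50 (0.609-fold to 1.35-fold).

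SLC22A4 was not tested, since it reached 1 FPKM only in the KYSE30 libraries of this experiment. It had 2.50 and 1.94 FPKM there, 0.68 and 0.59 FPKM in KYSE180, and 0.33 and 0.41 FPKM in KYSE450. After scaling it was lower in 3 of 3 treated libraries, at 78.3%, 88.7% and 88.5% of control.

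**Figure D2:**
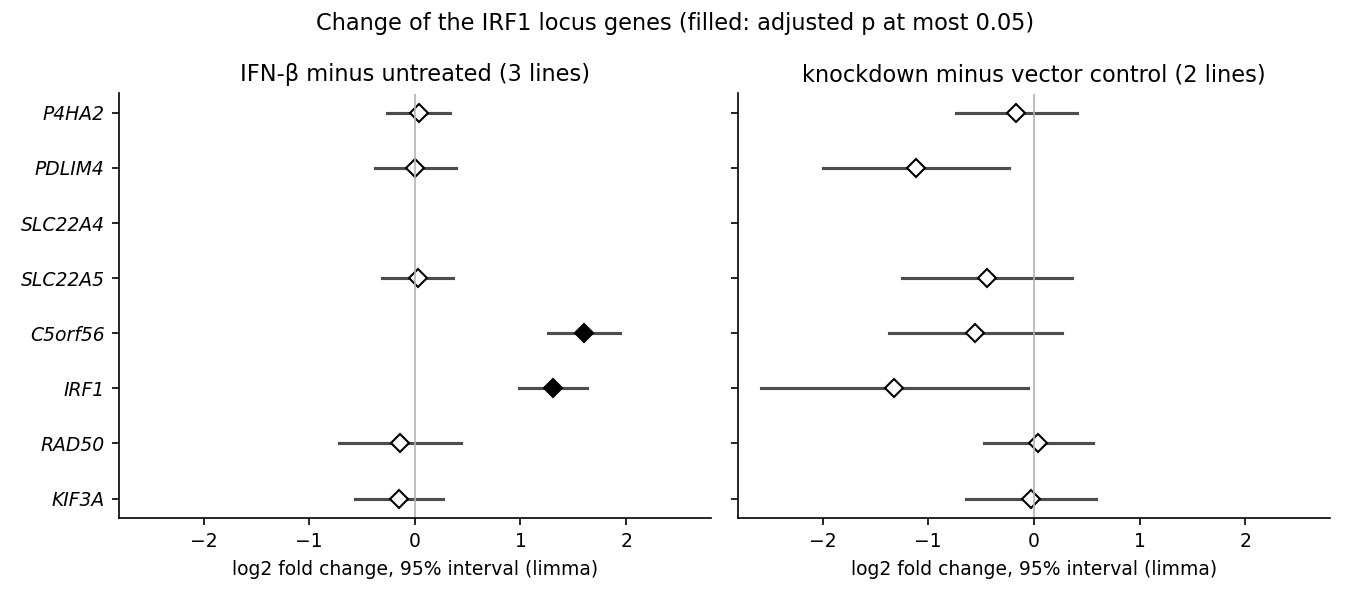
Log2 fold change of each gene on the log2(scaled FPKM + 1) scale with its 95% interval from limma, for IFN-β in 3 lines and knockdown in 2 lines; filled points passed the adjusted threshold and SLC22A4 was not tested. With IFN-β, IRF1 (1.31) and C5orf56 (1.60) lie apart from 0, and with knockdown the intervals of PDLIM4 and IRF1 end below 0 without an adjusted call.

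In the IFN-β experiment C5orf56 stood at a minor share of the IRF1 level in untreated cells and at a larger one after treatment. In FPKM, which is per length, C5orf56 made up 23.5% of IRF1 in untreated KYSE30 and 33.5% after treatment. For KYSE180 the shares were 28.96% and 52.0%, and for KYSE450 26.4% and 65.4%. The share was higher in 3 of 3 lines and the groups did not overlap, but the smallest p that an exact sign-flip test over 3 lines can give is 0.25, so this is a description. In the second experiment the share was 22.1% with the vector and 51.8% with knockdown in KYSE30, and 58.8% and 78.8% in KYSE180. A higher share was thus also measured with knockdown, and the KYSE180 vector library was above treated KYSE180. These percentages include any reads that both genes would share under the longer gene models.

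At a 2-fold ratio of scaled FPKM and a mean of at least 1 FPKM in the pair, IRF1 and C5orf56 were the genes higher in each line. They were 2 of 8 genes in KYSE30, beside 2.29% of all genes, 2 of 7 in KYSE180, beside 3.7%, and 2 of 7 in KYSE450, beside 3.55%. Lower by that measure were 0 of 8 in KYSE30 (1.02% of all genes), RAD50 alone in KYSE180 (4.83%) and 0 of 7 in KYSE450 (3.01%).

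The knockdown libraries were compared next, starting with C5orf56, the gene taken for IRF1-AS by its symbol and position. Whether the knockdown targets the transcripts counted under it was not tested. C5orf56 stood at 6.86 FPKM with the vector and 3.04 FPKM with knockdown in KYSE30. The KYSE180 pair stood at 1.08 and 0.948 FPKM. Its scaled level with knockdown was thus 42.2% of the vector library's in KYSE30 and 88.2% in KYSE180, so the library labelled as knockdown in KYSE180 differed little from its control in the RNA counted under this gene. For IRF1 the KYSE30 values were 31.1 FPKM with the vector and 5.88 FPKM with knockdown, and the KYSE180 values were 1.83 FPKM with the vector and 1.20 FPKM with knockdown, or 18.0% and 65.8% of control after scaling. Both genes were lower in 2 of 2 lines, and for both the difference was larger in KYSE30.

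PDLIM4, which starts at -233.1 kb from IRF1, and SLC22A5, at -121.0 kb, were also lower in KYSE30. PDLIM4 had 14.3 FPKM with the vector and 3.74 FPKM with knockdown in KYSE30, and 44.3 and 31.3 FPKM in KYSE180. The knockdown library held 25.0% of the vector library's scaled level in KYSE30 and 70.7% in KYSE180, lower in 2 of 2 lines. SLC22A5 had 7.30 and 3.57 FPKM in KYSE30, where knockdown left 46.6%, and 2.95 and 3.04 FPKM in KYSE180, where it stood at 103%. Among 11995 genes with a mean of 1 FPKM in the KYSE30 pair, ranked from the lowest ratio, IRF1 was number 98, PDLIM4 number 190, C5orf56 number 601 and SLC22A5 number 752.

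**Figure D3:**
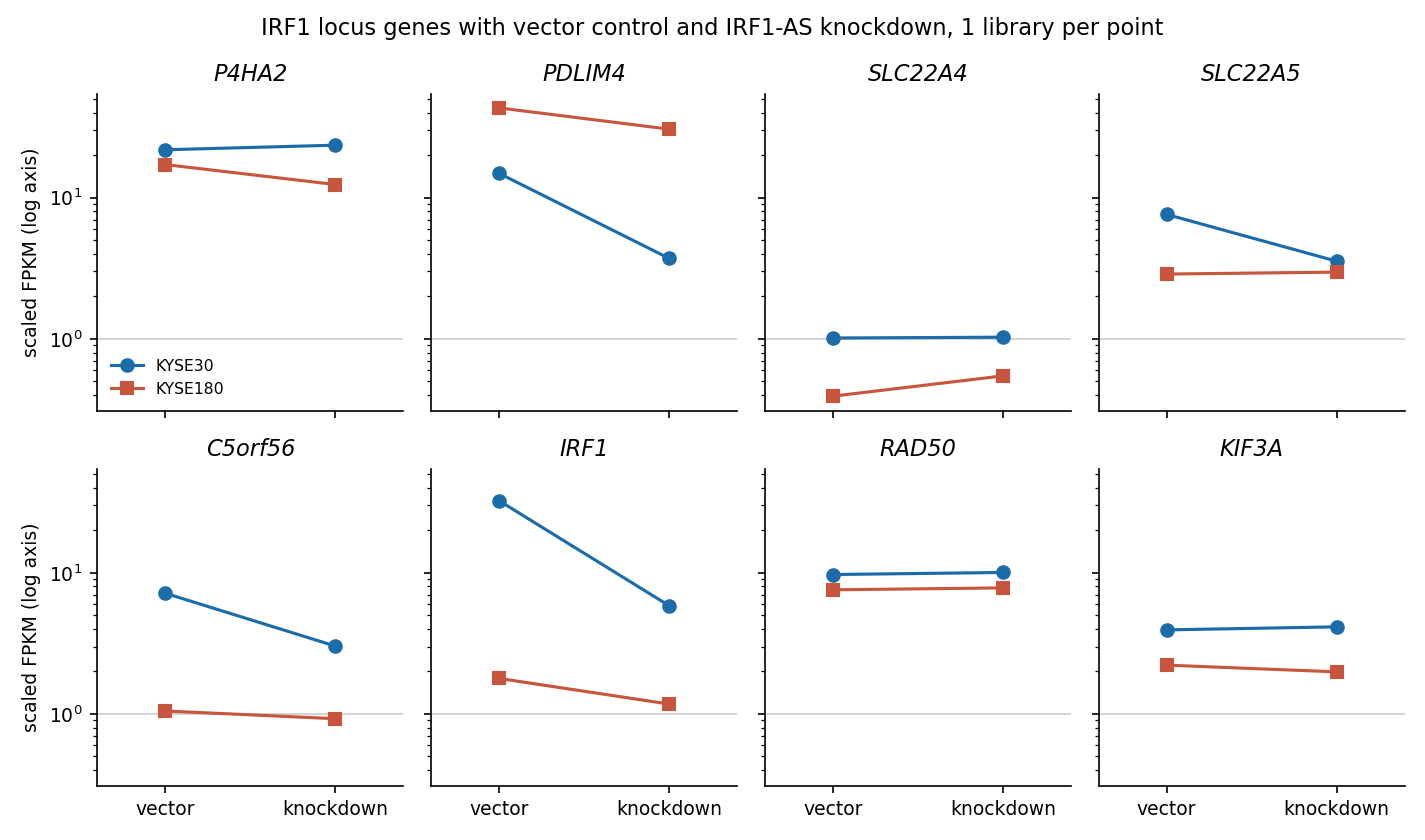
Scaled FPKM (log axis) of the 8 genes with the control vector and with IRF1-AS knockdown, 1 point per library, with a line joining the libraries of a cell line. In KYSE30 the lines of PDLIM4, SLC22A5, C5orf56 and IRF1 slope down by over 2-fold, and those of P4HA2, SLC22A4, RAD50 and KIF3A are nearly level.

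In KYSE30 the other genes, P4HA2, SLC22A4, RAD50 and KIF3A, differed less, at 101% to 108% of control after scaling. That did not hold in KYSE180, where P4HA2 stood at 72.2% of control, near the 70.7% of PDLIM4. SLC22A4 stood there at 139%, with a mean of 0.470 FPKM, RAD50 at 103% and KIF3A at 89.6%. P4HA2, the next gene to PDLIM4 by RefSeq and enclosing it by GENCODE, had 20.9 and 23.7 FPKM in KYSE30 and 17.6 and 12.7 FPKM in KYSE180. SLC22A4, which lies between PDLIM4 and SLC22A5, had 0.972 and 1.03 FPKM in KYSE30 and 0.403 and 0.560 FPKM in KYSE180. RAD50 had 9.31 and 10.1 FPKM in KYSE30 and 7.77 and 8.01 FPKM in KYSE180. KIF3A had 3.78 and 4.17 FPKM in KYSE30 and 2.28 and 2.04 FPKM in KYSE180. By distance from the IRF1 start, the ratios of the KYSE30 pair were not graded. PDLIM4 had a lower ratio than SLC22A5 and SLC22A4, which are nearer to IRF1. RAD50, the nearest to IRF1 by start, stood at 103%. Measured from the start of C5orf56 instead, SLC22A5 is nearer than RAD50. With 1 library per arm, and SLC22A4 near 1 FPKM, a part of distance was not tested.

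None of these differences passed the test over all genes. In limma, 0 of 7 tested genes had an adjusted p of at most 0.05, beside 0% of 12813 genes, and no other tool was run. At an unadjusted p under 0.05 there were 823 genes (6.42%), PDLIM4 and IRF1 among them. The log2 fold change was -1.12 for PDLIM4 (limma adjusted p = 0.766, 95% interval of the fold 0.2499 to 0.849) and -1.32 for IRF1 (95% interval -2.58 to -0.06, limma adjusted p = 0.774). It was -0.55 for C5orf56 (95% interval -1.38 to 0.27) and -0.44 for SLC22A5 (95% interval -1.25 to 0.36). The remaining values were -0.17 for P4HA2 (95% interval -0.74 to 0.40), 0.04 for RAD50 (95% interval -0.48 to 0.56) and -0.02 for KIF3A (95% interval -0.64 to 0.59). The fit has 1 residual degree of freedom, so the spread is mostly one shared across genes. In KYSE180 alone, a value with no test, the log2 difference was -0.49 for PDLIM4, -0.36 for IRF1 and 0.03 for SLC22A5.

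By the 2-fold measure within a line, 4 of 8 genes were lower in KYSE30, beside 7.5% of all genes. These were PDLIM4, SLC22A5, C5orf56 and IRF1, and 0 of 8 were higher, beside 2.34%. C5orf56 was taken for the knocked-down RNA and IRF1 is the gene it is antisense to. The count for neighbours beyond them therefore rests on PDLIM4 and SLC22A5. In KYSE180, 0 of 6 genes with a mean of at least 1 FPKM were lower, beside 4.66%, and 0 of 6 were higher, beside 3.08%. C5orf56, with a mean of 0.988 FPKM, and SLC22A4, with 0.470 FPKM, were left out there. The same genes passed with the values as deposited. The KYSE30 count compares 1 library with 1 library and has no replicate check, and the difference between the lines was not tested.

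The levels were also ranked among the named genes of each library, to set the separately normalized experiments side by side. In KYSE30, IRF1 was at percentile 89.8 with the vector, 65.6 with knockdown, 64.3 untreated and 80.4 with IFN-β. PDLIM4 was at percentile 79.4 with the vector, 59.5 with knockdown, 45.1 untreated and 47.1 with IFN-β. C5orf56 was at 67.6, 57.1, 48.6 and 62.4 in the same order, and SLC22A5 at 68.6, 58.9, 57.6 and 56.4. These 4 genes were picked because the vector library was above the knockdown library, which favours high vector values, so their ranks are a description. RAD50, not so picked, was at percentile 72.7 with the vector and 73.6 with knockdown in KYSE30, against 56.3 untreated and 59.3 with IFN-β. For RAD50 both libraries of the second experiment were thus higher. SLC22A4, also not so picked, was lower in both, at 46.3 and 48.4 against 51.6 and 49.1. For P4HA2 (85.0 and 86.1 against 83.6 and 85.4) and KIF3A (58.6 and 60.8 against 60.5 and 59.7) the experiments overlapped. In KYSE180 both libraries of the second experiment were higher for PDLIM4, at 92.5 and 89.4 against 79.3 and 76.1. The same held there for RAD50 (68.5 and 69.3 against 56.3 and 49.8) and SLC22A5 (54.9 and 55.8 against 51.6 and 52.8). It did not hold for P4HA2, SLC22A4, C5orf56 or KIF3A. Nor did it hold for IRF1, at 50.4 and 47.0 against 51.0 untreated and 67.4 with IFN-β. A low knockdown library and a high vector library cannot be told apart with 1 library of each. The experiments differ in gene tables and processing, and in KYSE30 also in the summed squamous markers given above.

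**Figure D4:**
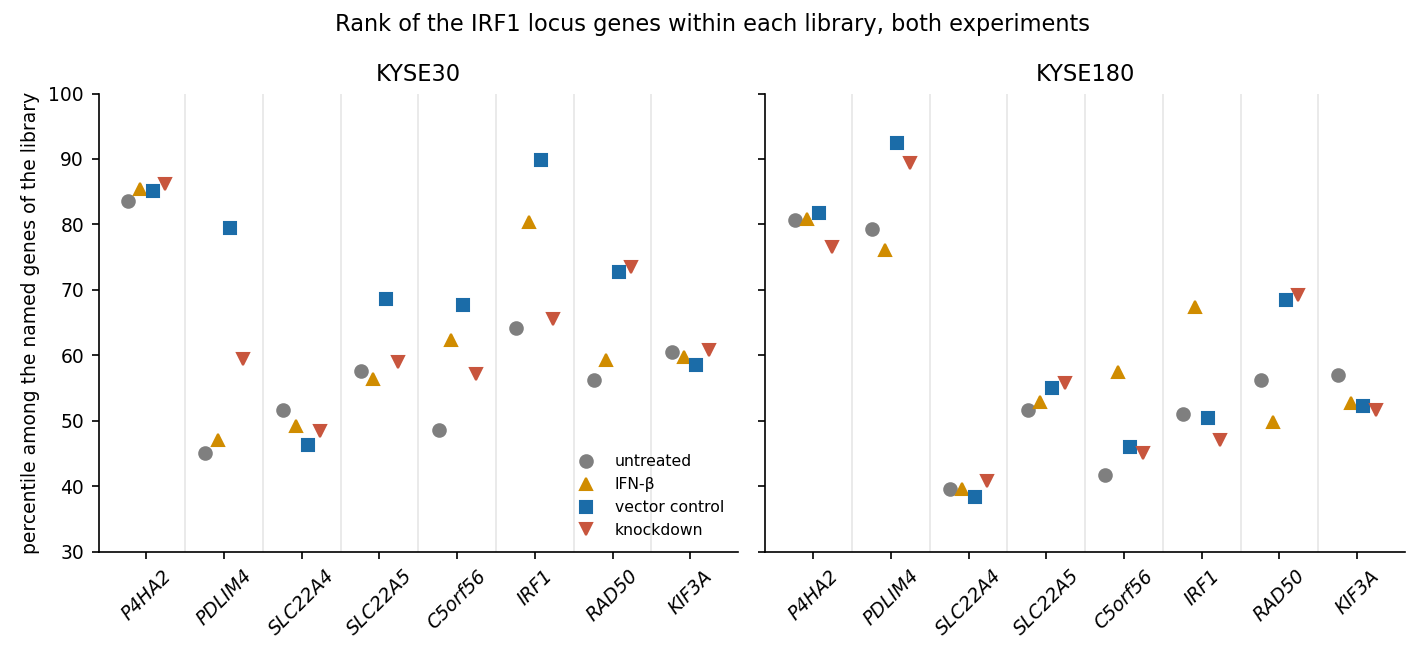
Percentile of each gene among the named genes of the same library, for the 4 KYSE30 and the 4 KYSE180 libraries. In KYSE30 the vector control library is highest for PDLIM4, SLC22A5, C5orf56 and IRF1, with IRF1 at 89.8 and PDLIM4 at 79.4. For RAD50 in KYSE30 both libraries of the second experiment are above both of the first, and for SLC22A4 both are below.

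Within 1 Mb of either end of IRF1, 18 other named genes were listed for the IFN-β experiment, of which 7 could be tested and 0 passed in limma. Their log2 fold changes ran from -0.16 to 0.15, the largest in size being those of UQCRQ, a subunit of mitochondrial complex III (-0.16), FNIP1 (0.15) and RAPGEF6 (-0.15). For the knockdown 20 were listed, 8 could be tested and 0 passed, from -0.20 to 0.35, led by SHROOM1 (0.35), the elongation factor gene AFF4 (-0.20) and the chaperone gene HSPA4 (0.19). In no line did any of them reach the 2-fold measure in either direction. SEPT8, tested for the knockdown only, had a log2 difference of -0.57 in KYSE30 and 0.22 in KYSE180. The cytokine genes of the window were at or near 0: IL3 and IL4 were listed at 0 in every library, and IL5, IL13 and CSF2 stayed at or below 0.22 FPKM.

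Of 20 long non-coding genes of the window listed in the IFN-β tables, 14 were at 0 throughout. MIR3936HG, antisense to SLC22A4 and SLC22A5, could be tested, with a log2 fold change of -0.07 (95% interval -0.65 to 0.50) and levels of 0.729 to 6.91 FPKM. RP11-485M7.2 was the other to reach 1 FPKM, at 0.41 to 2.03 FPKM, and was not tested. It passed the 2-fold measure in opposite directions. Its log2 ratio of scaled FPKM was -1.85 in KYSE30, at a pair mean of 1.01 FPKM, and 1.99 in KYSE180, at 1.19 FPKM. The clone-named gene AC116366.3 is annotated on the plus strand across all 9190 bases of IRF1. On their own strand it also covers 77871 bases of C5orf56 (78.1 kb long) and 90061 bases of RAD50 (90.3 kb long). No row of either experiment was matched to it, so it was not analysed here.

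**Figure D5:**
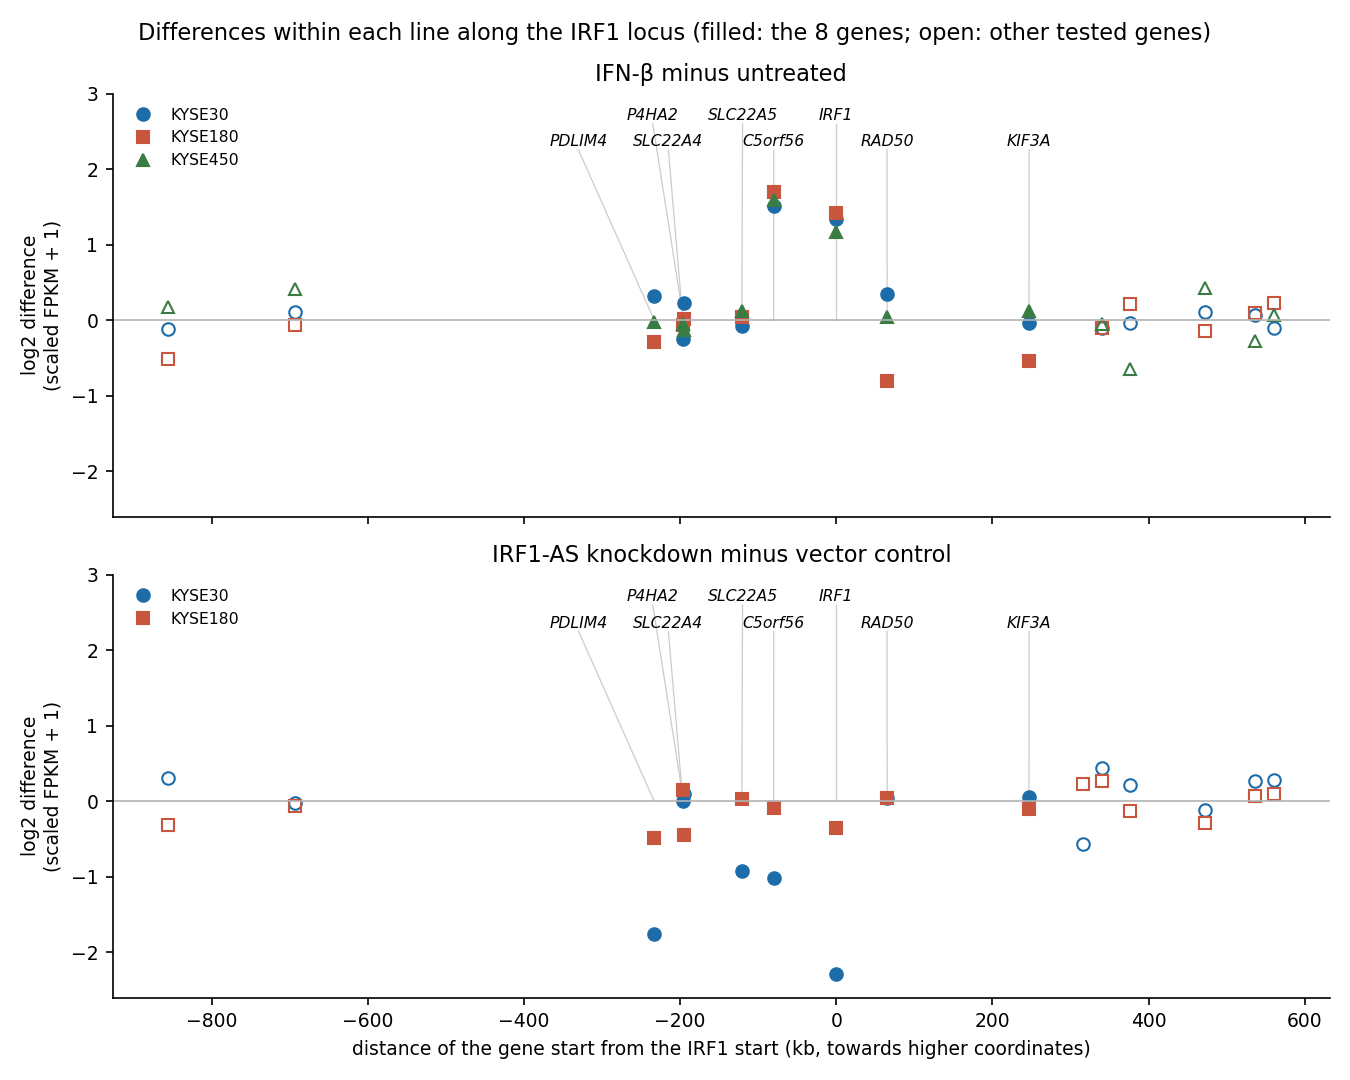
Log2 difference of scaled FPKM + 1 within each line against the distance in kb of a gene's GENCODE start from that of IRF1, for the 8 genes (filled) and the other tested named genes within 1 Mb (open). With IFN-β, C5orf56 and IRF1 stand above 1 in all 3 lines, and with knockdown the points below -0.9 are PDLIM4, SLC22A5, C5orf56 and IRF1 in KYSE30.

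Levels were also compared between lines over the untreated and treated libraries of the IFN-β experiment. By limma's F-test 6 of 7 tested genes differed, beside 67.1% of all genes, a share near the background that is no result about the locus. PDLIM4 ranged most, with KYSE180 above KYSE450 above KYSE30 and an 8.39-fold distance between the highest and lowest on the scale with the pseudocount (limma adjusted p = 0.000234). IRF1 was highest in KYSE30 and lowest in KYSE450, 3.35-fold apart (limma adjusted p = 0.000818), and RAD50 was highest in KYSE450 and lowest in KYSE180, 3.75-fold apart (limma adjusted p = 0.00422). P4HA2 (1.83-fold, limma adjusted p = 0.00754), C5orf56 (1.87-fold, limma adjusted p = 0.0115) and SLC22A5 (1.58-fold, limma adjusted p = 0.0347) followed the order of IRF1, as did SLC22A4, which was not tested. For IRF1 and C5orf56 neighbouring lines in that order overlapped, since the treated library of one passed the untreated library of the next, and KYSE30 and KYSE180 overlapped for RAD50. KIF3A had a limma adjusted p of 0.278. Without KYSE30 the count was 3 of 6 genes and without KYSE450 it was 2 of 7.

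Genes that work with the neighbours were counted from lists by function. With IFN-β, 0 of 8 tested carnitine genes, 0 of 11 collagen hydroxylation genes, 0 of 11 DNA break genes, 0 of 14 kinesin-2 and cilia genes and 0 of 6 PDZ-LIM and actinin genes passed in limma, beside 0.426% of all genes, with list medians of -0.25 to 0.14 on the log2 scale. Of 19 tested genes that act above or below IRF1, 4 rose and 0 fell, beside the same 0.426%, with a list median log2 fold change of 0.89 beside -0.01 over all genes tested. Among those that rose were PSMB9, an immunoproteasome subunit (3.80), NLRC5, the activator of MHC class I genes (2.13), and the peptidase gene LAP3 (1.75). With knockdown, 0 genes passed in any of the 6 lists, whose medians ran from -0.28 to 0.02 beside -0.02 over all genes tested. The smallest unadjusted p among them was that of PDLIM1, a relative of PDLIM4 that is not among the genes of this locus, with 207 and 74.4 FPKM in KYSE30, 138 and 54.5 FPKM in KYSE180 and a log2 fold change of -1.43 (limma adjusted p = 0.674). GBP2, an interferon-inducible GTPase, had 15.1 and 4.30 FPKM in KYSE30 and 4.53 and 2.34 FPKM in KYSE180. CASP1, the inflammatory caspase, had 1.41 and 0.305 FPKM in KYSE30 and 6.61 and 2.95 FPKM in KYSE180. Lower levels with knockdown in both lines were thus also measured in list genes outside the locus.

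Over the 6 libraries of the IFN-β experiment, which share 3 lines, the log2 levels of IRF1 and C5orf56 had a Pearson r of 0.92. That of IRF1 with the neighbours was 0.76 for SLC22A5, 0.74 for P4HA2, -0.02 for KIF3A, -0.54 for RAD50 and -0.58 for PDLIM4. Among 9116 genes with a mean of at least 5 FPKM, those most like IRF1 were DYRK1A (0.99), TRIM26 (0.99), RNF113A (0.98), RBCK1 (0.97) and PMAIP1 (0.97). Those most like C5orf56 were C6orf62 (0.99), NAPA (0.97), OAS1 (0.97), ZNF609 (0.96) and LGALS9 (0.96). The points share library, line and treatment, and the values are a description.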

How the data were processed

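Total RNA of 10 libraries in 4 groups was sequenced with Illumina library preparation, per the labels' protocols. TopHat, HTSeq and hg38 appear in the submitters' processing notes, without versions or roles. The deposited values are FPKM, made by the authors and named so in the file headers, 1 table per library. Neither depth nor annotation nor strand setting is stated there.

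Long non-coding transcripts of the IFN-β tables were summed per gene (16044 genes, beside 20501 named rows), and 946 alternate copies in the knockdown tables (23555 rows) were added to their gene. FPKM were scaled by median-of-ratios factors within an experiment. Genes with 1 FPKM in at least 3 libraries (IFN-β) or 2 (knockdown) were fitted as log2(scaled FPKM + 1) with limma 3.58.1 (trend, robust; statmod 1.5.0; R 4.3.3), with cell line as a block, since same-numbered libraries are the same line. P-values were adjusted by Benjamini-Hochberg over all genes at 0.05. The fit was also run on simulated data that gave every gene the same spread. Real genes differ in spread, so that run cannot show whether the calls here are sound. Tables and motif searches used Python 3.11.15 with pandas 2.3.3.

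The 8 genes, the lists and the tests were chosen with earlier results of these data known. All 8 genes are named. Further names are the 3 tested genes of the window with the largest log2 fold change in size, long non-coding genes there at 1 FPKM, up to 3 genes per function list by smallest p, and the 5 most alike by correlation. Some genes are not reported here. SEPT8, the cytokine genes and AC116366.3 were named after their values were seen. Alternatives were other scalings, pseudocount, filters, limma options, the block, and leaving out each line.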

Additional observations from a re-analysis of the deposited data

How the results depend on the processing

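The count of locus genes that passed with IFN-β was 2 under the values as deposited, upper-quartile scaling, a pseudocount of 0.1, limma without its robust or trend option, and the named-gene part alone. Dropping the filter gave 0, as did leaving out the replicate block, where the line differences enter the spread. It was 1 at a mean of at least 5 FPKM, where C5orf56 was not tested. Leaving out 1 line gave 0 to 2. IRF1 and C5orf56 were higher in every one of these settings that tested them, at log2 fold changes of 1.25 to 1.53 and 1.54 to 2.31. Among all genes 53 passed, against 237 with the values as deposited, 35 at a pseudocount of 0.1, 15 with no replicate block, 13 with no filter, and 27 to 70 without 1 line. The knockdown count was 0 under each alternative that has a test, with and without the replicate block, and leaving out a line leaves 1 pair and no test. The cell line count of 6 was 3 without KYSE30 and 2 without KYSE450 (range 2 to 6 over the lines left out), and between 4 and 6 under the others; splitting it by treatment leaves 1 library per line and was not tested.

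Signs turned only for locus genes with no call. PDLIM4 with IFN-β was -0.014 under upper-quartile scaling and -0.16 without KYSE30, where P4HA2 was -0.056. Without KYSE180, RAD50 was 0.20 and KIF3A 0.050, and without KYSE450, SLC22A5 was -0.025. With knockdown, KIF3A was 0.00182 as deposited, SLC22A5 was 0.034 in KYSE180 alone, and P4HA2 was 0.10 and KIF3A 0.057 in KYSE30 alone. The cause of these turns was not tested. Without read depth, the error of a single FPKM is unknown, which bears most on SLC22A4 and C5orf56, at under 1 FPKM in several libraries.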
